A study of Mus musculus with 8 samples.

Results

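The genes described here are 9 senescence and p53 pathway genes, *Trp53*, *Mdm2*, *Cdkn1a*, *Gdf15*, *Cdkn2a*, *Cdkn2b*, *Cdkn2c*, *Lmnb1* and *Il6*, chosen by symbol from the 46078 genes in the count tables. They were measured by bulk RNA-Seq in brain infarcts from WT C57BL/6J mice aged 18 months. Every animal had DH stroke, a model that combines permanent occlusion of the distal middle cerebral artery with hypoxia, and every infarct was collected 7 weeks after stroke. From 1 week after stroke, 4 mice received vehicle (sterile PBS) and 4 received 2-hydroxypropyl-β-cyclodextrin (HPβCD, 4 g/kg), a ring-shaped sugar that binds cholesterol, both by subcutaneous injection 3 times per week for 6 weeks. The study used male mice, and no stroke-free or untreated infarct is part of this comparison. The comparison asks how repeated HPβCD changed the transcripts of the chronic infarct in aged mice.

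The transcription factor p53, encoded by *Trp53*, is stabilized by DNA damage and other stresses and switches on genes that halt the cell cycle, repair DNA or start cell death. Senescence is a lasting arrest of the cell cycle, held mainly by the p53 target p21 and by the INK4 inhibitor p16, and it is known in aged and injured brain tissue in glia, vascular cells and macrophages. Senescent cells commonly lose lamin B1 from the nuclear envelope and release cytokines, growth factors and proteases.

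One gene of the 9, *Gdf15*, rose in infarcts of HPβCD-treated aged mice. *Gdf15* encodes growth differentiation factor 15, a secreted stress hormone that p53 and the integrated stress response can induce. Its level was 4.11 ± 0.992 CPM in vehicle-treated mice and 9.89 ± 1.01 CPM in HPβCD-treated mice (SD, n = 4 per group), a 2.4-fold difference. The unit CPM expresses a gene's count relative to the total of all gene counts in the library, scaled for differences in library composition. *Il6* was too sparse to test. None of the other 7 genes passed the test, among them *Cdkn1a*, *Trp53*, *Mdm2* and *Cdkn2a*, and their values are given below with the interval of each difference.

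The test was the edgeR quasi-likelihood F test over the 14736 genes that had enough counts, and a gene is called changed at a Benjamini-Hochberg adjusted p under 0.05. Of the 8 genes tested here, 1 was called (12.5%), where 1.95% of all tested genes were called in either direction and 1.17% as higher in HPβCD-treated mice. By the same threshold, DESeq2 also called *Gdf15* alone, where it called 17.0% of all genes, and limma-voom called *Gdf15* and *Mdm2*, where it called 21.9%. In simulated counts with 200 of 14736 genes changed, edgeR recovered 0% of genes changed 2-fold and 81.0% of genes changed 4-fold. DESeq2 recovered 23% and 89.5%, and limma-voom 0% and 78.5%. In the data 27.8% of tested genes had an unadjusted edgeR p under 0.05, so the simulated rates need not hold here. Of the calls at 4-fold, 6.36% were false with edgeR, 4.27% with limma-voom and 22.8% with DESeq2, and 33.3% of DESeq2 calls were false at 2-fold. A gene that misses the threshold here is therefore not shown to be the same in both groups.

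Libraries held 16.6 M to 32.9 M gene counts. The infarcts were located by eye and dissected by hand, and their cell makeup differed between animals. Summed transcripts of 8 neuron marker genes ranged from 17.8 to 6010 CPM in vehicle-treated mice, of which vehicle animals 1 and 3 had 952 and 6010 CPM, and from 7.78 to 81.7 CPM in HPβCD-treated mice. The summed markers of fibroblasts (6 genes; 2350 to 6020 CPM with vehicle, 8660 to 9270 CPM with HPβCD) and of foamy macrophages (6 genes; 6650 to 12000 CPM and 14800 to 24200 CPM) did not overlap between groups. The marker sums of plasma cells (5 genes; 1190 to 2640 CPM with vehicle, 326 to 561 CPM with HPβCD) and B lymphocytes (5 genes; 135 to 494 CPM and 41.7 to 124 CPM) also did not overlap, and were lower with HPβCD. All 6 oligodendrocyte markers (summed, 1520 to 4880 CPM and 158 to 1930 CPM) and all 6 astrocyte markers (2120 to 8980 CPM and 607 to 2440 CPM) had negative log2 fold changes, with overlapping sums and no marker called. All 6 endothelium markers were higher with HPβCD, with overlapping sums (531 to 687 CPM and 634 to 1030 CPM) and no marker called. Of the markers whose sums did not overlap, all 6 for fibroblasts were higher with HPβCD, and for foamy macrophages 5 were higher and 1 lower. For plasma cells 4 were lower and 1 higher, and for B lymphocytes all 5 were lower. In bulk tissue, fewer cells of a type and less RNA per cell cannot be told apart.

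**Figure D1:**
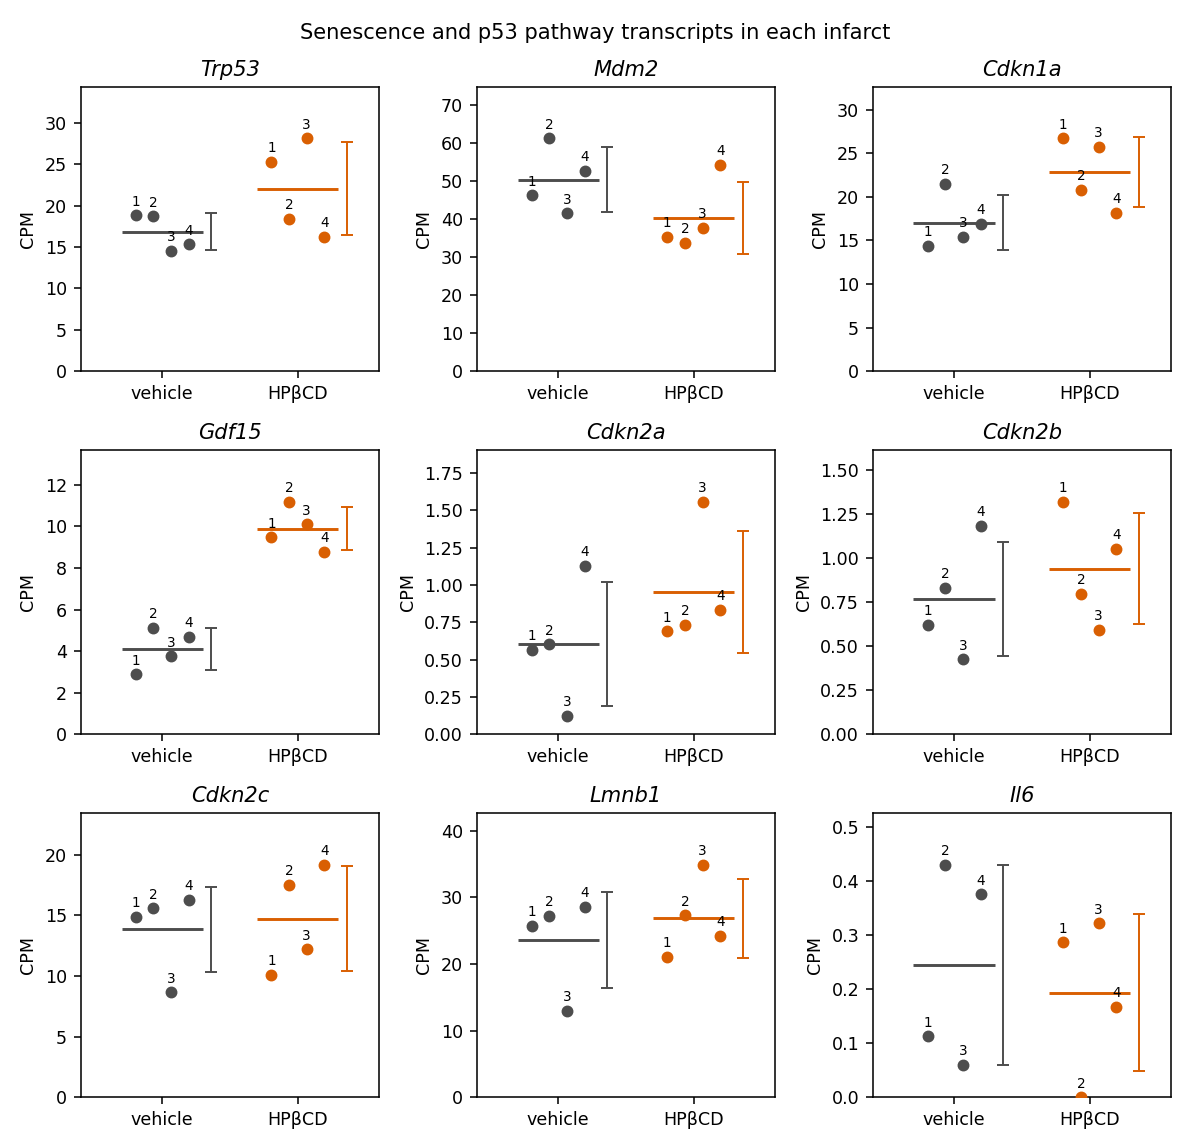
Level of each gene in each infarct, in CPM on a linear axis that starts at 0, for vehicle-treated (gray) and HPβCD-treated (orange) aged mice. Points are animals labelled by number, horizontal lines are group means and vertical bars are ± 1 SD (n = 4 per group). In the *Gdf15* panel the HPβCD points, from 8.77 to 11.2 CPM, lie above the vehicle points, from 2.88 to 5.11 CPM, while in the other 8 panels the groups overlap.

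*Gdf15* (ENSMUSG00000038508) lies on the minus strand of chr8:70629393-70632456 in GRCm38, with 1852 bases of exon. It had 2.88, 5.11, 3.75 and 4.68 CPM in vehicle animals 1 to 4 and 9.48, 11.2, 10.1 and 8.77 CPM in HPβCD animals 1 to 4. The raw counts behind these values were 51, 178, 62 and 87 in vehicle-treated mice and 165, 182, 189 and 158 in HPβCD-treated mice. Every HPβCD-treated mouse was above every vehicle-treated mouse, a separation seen in the higher direction in 8.77% of all tested genes. On the log2 scale the difference was 1.26 (SE 0.22, 95% interval 0.77 to 1.75; edgeR adjusted p = 0.0472), and *Gdf15* ranked 83 among all tested genes by p-value. The exact permutation test over the 70 assignments of animals gave p = 0.0286 (two-sided), the smallest that 4 animals against 4 allow. Any gene whose groups do not overlap gets this p, so it restates the separation and adds no support. The spread within groups was small beside this difference, with a coefficient of variation of 24.1% in vehicle-treated mice and 10.2% in HPβCD-treated mice.

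The adjusted p of *Gdf15* lay close to the threshold, and the call depended on which animals were included and on the model. The gene was not called with library totals in place of scaling factors (1.18, edgeR adjusted p = 0.0549) or with the replicate number as a block (1.29, edgeR adjusted p = 0.0843). Without vehicle animal 1 the log2 fold change was 1.14 with an adjusted p of 0.149 (edgeR), and without vehicle animal 4 it was 1.34 with 0.0635. Without HPβCD animal 1, 2 or 3 it was 1.29, 1.21 or 1.25, with edgeR adjusted p-values of 0.156, 0.175 and 0.0899. Without vehicle animals 1 and 3 together, the animals with the most neuron transcripts, it was 1.03 and stayed called (edgeR adjusted p = 0.047). Over all 16 alternatives the log2 fold change stayed between 1.03 and 1.39, and the adjusted p ranged from 5.04e-05 with DESeq2 to 0.175. *Gdf15* moved together with the marker sums of fibroblasts and foamy macrophages given above, which also separated the groups, and their part in the result was not tested.

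**Figure D2:**
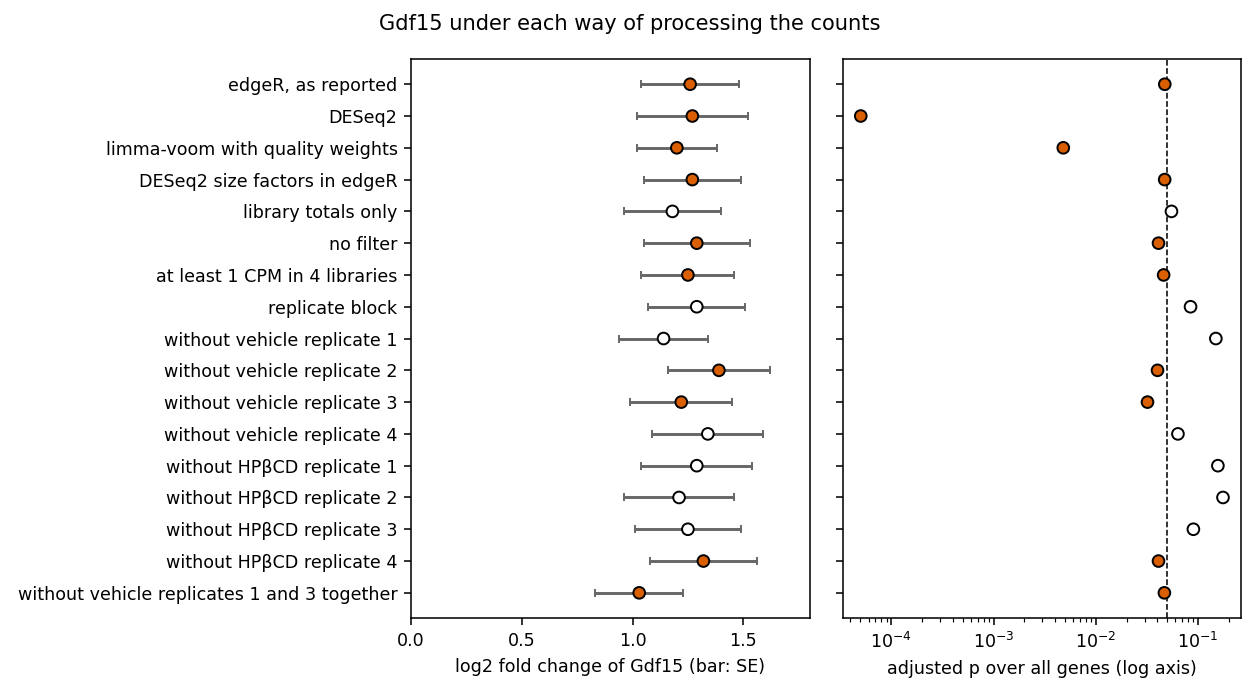
Log2 fold change of *Gdf15* (left, HPβCD over vehicle, bars are 1 SE) and its adjusted p over all tested genes (right, log axis, dashed line at 0.05) under the reported test and 16 alternatives, with filled points where the gene was called. The fold change stays between 1.03 and 1.39 in all of them, whereas the adjusted p crosses the dashed line.

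The genes whose pattern over the 8 libraries was most like that of *Gdf15* were *Stra6l* and *Igfbp4*, each with a root mean square difference of 0.13 in centred log2 CPM, against 0.68 for the variation of *Gdf15* itself. Both were called in the same test, *Stra6l* with a log2 fold change of 1.12 and *Igfbp4* with 1.09 (edgeR adjusted p = 0.0483 for each). They were picked from 13286 candidates for their likeness to *Gdf15* over these same libraries. Their group difference therefore follows from that choice and adds no support for *Gdf15*. *Gfral*, the brain stem receptor of the *Gdf15* hormone, had 0 counts in every library.

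Of the windows of 250 bases before an annotated transcript start, the 2 that belong to the upstream starts of *Gdf15* and *Cdkn1a* are printed, because both genes are classical p53 targets and only one of them was called. The sequences are from RefSeq on GRCm38.p6, read 5′ to 3′ on the strand of the gene. The *Gdf15* window is chr8:70632457-70632706 (minus strand), and the *Cdkn1a* window is chr17:29090729-29090978 (plus strand). Capitals mark the letters CATG, the core of a p53 half-site, in *Gdf15*, where the bases around them were not compared with a half-site. In *Cdkn1a* capitals mark the element in which a pair of such cores stands at the spacing of a full p53 site.
Gdf15: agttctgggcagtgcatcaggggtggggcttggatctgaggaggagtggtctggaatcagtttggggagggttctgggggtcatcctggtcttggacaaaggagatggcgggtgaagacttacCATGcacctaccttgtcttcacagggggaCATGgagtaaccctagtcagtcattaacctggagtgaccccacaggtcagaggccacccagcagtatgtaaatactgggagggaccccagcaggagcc
Cdkn1a: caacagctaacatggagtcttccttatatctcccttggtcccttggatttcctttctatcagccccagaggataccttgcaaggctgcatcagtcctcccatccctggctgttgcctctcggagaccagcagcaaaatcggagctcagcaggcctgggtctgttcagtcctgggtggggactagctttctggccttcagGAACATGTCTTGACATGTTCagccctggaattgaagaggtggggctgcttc
The *Cdkn1a* element, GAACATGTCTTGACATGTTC, covers bases 51 to 32 before that start, which lies 2790 bases upstream of the second annotated start. Among 32851 windows of this length over all genes, a pair of CATG cores with 6 bases between them, a pattern that reads the same on both strands, was found in 161 (0.49%), and *Cdkn1a* was the only one of the 9 genes with it. The *Gdf15* window holds CATG in 2 places without that spacing, and CATG alone was in 53.9% of windows. Windows were found for 8 of the 9 genes, 12 in all. No window was given for *Lmnb1*. These matches describe letters in short windows and say nothing about binding in these infarcts.

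*Trp53* (ENSMUSG00000059552, chr11:69580359-69591873, plus strand) had 18.8, 18.7, 14.5 and 15.3 CPM in vehicle animals 1 to 4 and 25.3, 18.4, 28.1 and 16.2 CPM in HPβCD animals 1 to 4. HPβCD animals 1 and 3 were above all vehicle-treated mice, and HPβCD animals 2 and 4 lay among them. The means were 16.8 ± 2.26 and 22.0 ± 5.61 CPM (SD, n = 4 per group). The log2 fold change of 0.39 (SE 0.21) had a 95% interval from -0.08 to 0.86 and was not called (edgeR adjusted p = 0.259). The interval covers the full range from a slightly lower level to 1.81-fold more *Trp53* transcript. Since p53 activity is set largely by the stability of the protein, the transcript level is a measurement of the message alone.

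*Mdm2* (ENSMUSG00000020184, chr10:117688875-117710758, minus strand) encodes the ubiquitin ligase that binds p53 and targets it for degradation, and is itself a p53 target. It had 46.2, 61.2, 41.5 and 52.6 CPM in vehicle animals 1 to 4 and 35.3, 33.8, 37.6 and 54.3 CPM in HPβCD animals 1 to 4. HPβCD animals 1 to 3 were below every vehicle-treated mouse and HPβCD animal 4 was above all but vehicle animal 2. *Mdm2* had a log2 fold change of -0.32 (SE 0.20, 95% interval -0.77 to 0.12; edgeR adjusted p = 0.315), and was the only one of the 8 tested genes with a negative value. DESeq2 gave -0.31 with an adjusted p of 0.449. Only limma-voom with sample quality weights called it, with a log2 fold change of -0.53 and an adjusted p of 0.0277. Leaving out each animal in turn gave between -0.50 and -0.21 in edgeR, with no call.

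*Cdkn1a* (ENSMUSG00000023067, chr17:29090976-29100727, plus strand) encodes p21, the inhibitor of cyclin-dependent kinases through which p53 arrests the cell cycle. It had 14.4, 21.5, 15.4 and 16.9 CPM in vehicle animals 1 to 4 and 26.7, 20.8, 25.7 and 18.2 CPM in HPβCD animals 1 to 4. Each HPβCD-treated mouse was above the vehicle mean of 17.1 ± 3.12 CPM, but vehicle animal 2 was above HPβCD animals 2 and 4, so that the groups overlapped. Its log2 fold change came to 0.42 (SE 0.19, 95% interval -0.01 to 0.84; edgeR adjusted p = 0.184), and the exact permutation p was 0.0857 (two-sided). Leaving out each animal in turn gave 0.34 to 0.56, without a call. *Cdkn1a* and *Gdf15* are both p53 targets, and the values side by side were 1.34-fold, with an interval from 0.996 to 1.8, and 2.4-fold, with an interval from 1.71 to 3.37.

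Ratios of raw counts within a library do not depend on the scaling, and these were chosen after the values were seen and are given without a test. There were 0.2, 0.238, 0.243 and 0.276 counts of *Gdf15* per count of *Cdkn1a* in vehicle animals 1 to 4 and 0.355, 0.535, 0.395 and 0.482 in HPβCD animals 1 to 4, with no overlap between groups. For *Mdm2* per count of *Trp53* the values were 2.45, 3.28, 2.87 and 3.44 with vehicle and 1.40, 1.83, 1.34 and 3.36 with HPβCD. The first 3 HPβCD animals had the lowest of these ratios, and HPβCD animal 4 had a ratio inside the vehicle range. *Cdkn1a* per count of *Trp53* was 0.766 to 1.15 with vehicle and 0.914 to 1.13 with HPβCD, so the latter range lay inside the former.

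**Figure D3:**
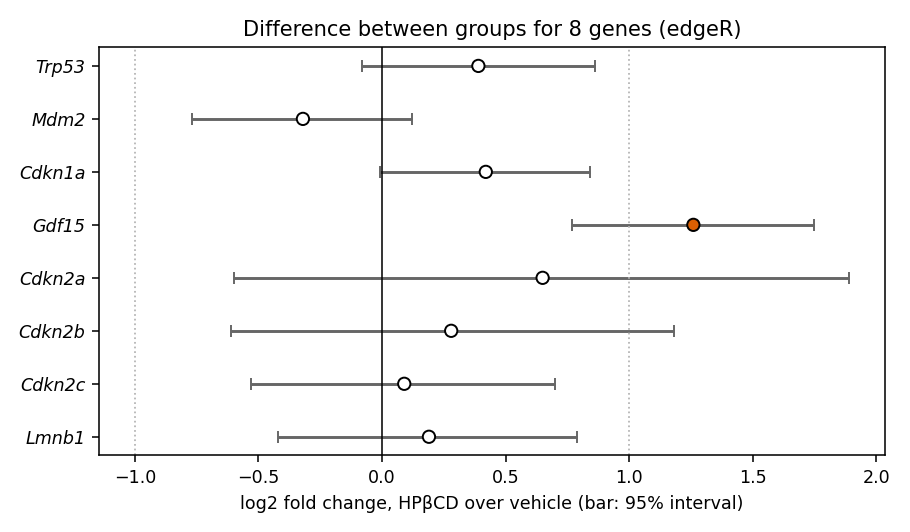
Log2 fold change of the 8 tested genes, HPβCD over vehicle, with 95% intervals from edgeR (n = 4 per group). The filled point is *Gdf15* at 1.26, the only called gene, and the solid line marks no difference. The interval of *Gdf15* runs from 0.77 to 1.75, the interval of *Cdkn1a* from -0.01 to 0.84, and all other intervals include 0.

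*Cdkn2a*, *Cdkn2b* and *Cdkn2c* encode INK4 proteins, inhibitors of the kinases CDK4 and CDK6 that hold the retinoblastoma protein active. *Cdkn2a* (ENSMUSG00000044303, chr4:89274471-89294653, minus strand) makes 2 proteins from 2 transcript starts that lie 12427 bases apart: p19ARF, which blocks MDM2, from the upstream start, and p16INK4a from the downstream one. Counts per gene add both up, so the senescence marker p16 was not measured apart from p19ARF. *Cdkn2a* had 10, 21, 2 and 21 counts in vehicle animals 1 to 4 and 12, 12, 29 and 15 counts in HPβCD animals 1 to 4. These were 0.566, 0.603, 0.121 and 1.13 CPM with vehicle and 0.69, 0.735, 1.56 and 0.833 CPM with HPβCD. HPβCD animal 3 was the highest and vehicle animal 3 the lowest, and vehicle animal 4 was above 3 of the 4 HPβCD-treated mice. The log2 fold change of 0.65 (SE 0.55) had the widest interval of the 8 tested genes, from -0.60 to 1.89 (edgeR adjusted p = 0.486). As a ratio to the vehicle level, the interval ran from 0.662 to 3.7. Without HPβCD animal 3 the log2 fold change of *Cdkn2a* was 0.31, without vehicle animal 3 it was 0.33, without vehicle animal 4 it was 1.11, and limma-voom gave 0.06.

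*Cdkn2b* (ENSMUSG00000073802, chr4:89306299-89311039, minus strand), the neighbor of *Cdkn2a* that encodes p15, was as sparse, with 7 to 29 counts per library. It had 0.622, 0.832, 0.424 and 1.18 CPM in vehicle animals 1 to 4 and 1.32, 0.797, 0.59 and 1.05 CPM in HPβCD animals 1 to 4. The groups overlapped over most of their ranges, with a difference of 0.28 on the log2 scale (SE 0.39, 95% interval -0.61 to 1.18; adjusted p from edgeR 0.688). Leaving out each animal in turn gave 0.08 (without HPβCD animal 1) to 0.57 (without vehicle animal 4), with 0.10 without vehicle animal 3 and 0.46 without HPβCD animal 3, and limma-voom gave 0.01.

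*Cdkn2c* (ENSMUSG00000028551, chr4:109660876-109667189, minus strand), which encodes p18, was the INK4 gene with the most transcript. It had 14.9, 15.6, 8.66 and 16.3 CPM in vehicle animals 1 to 4 and 10.1, 17.5, 12.2 and 19.2 CPM in HPβCD animals 1 to 4. HPβCD animals 1 and 3, which had the most *Trp53* and *Cdkn1a*, had the least *Cdkn2c* in their group. Between groups it differed by a log2 fold change of 0.09 (SE 0.27, 95% interval -0.53 to 0.70; edgeR adjusted p = 0.863). Its sign rested on vehicle animal 3, without which it was -0.08, and on HPβCD animal 4, without which it was -0.06.

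*Lmnb1* (ENSMUSG00000024590, chr18:56707813-56753424, plus strand) encodes lamin B1. It had 25.7, 27.2, 13.0 and 28.6 CPM in vehicle animals 1 to 4 and 21.1, 27.3, 34.9 and 24.2 CPM in HPβCD animals 1 to 4. Vehicle animal 3 had the lowest level of all 8 infarcts, and the other 3 vehicle-treated mice lay within the HPβCD range. On the log2 scale the groups differed by 0.19 (SE 0.27, 95% interval -0.42 to 0.79; edgeR adjusted p = 0.696), and without vehicle animal 3 it was -0.01. Vehicle animal 3 was also the lowest vehicle-treated mouse for *Trp53*, *Mdm2*, *Cdkn2c*, *Cdkn2a*, *Cdkn2b* and *Il6*, though not for *Cdkn1a* or *Gdf15*, and had 6010 CPM of neuron markers. The part of neuron RNA in these values was not tested.

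*Il6* (ENSMUSG00000025746, chr5:30013114-30019981, plus strand) encodes interleukin 6, a cytokine secreted by senescent cells and by many others. It had 2, 15, 1 and 7 counts in vehicle animals 1 to 4 and 5, 0, 6 and 3 counts in HPβCD animals 1 to 4, too few for the filter. Its level was 0.245 ± 0.185 CPM with vehicle and 0.194 ± 0.145 CPM with HPβCD (SD, n = 4 per group), and the exact permutation p on log2 CPM was 0.743 (two-sided). The count of 0 in HPβCD animal 2 allows a level of up to 0.184 CPM, a limit of 3 counts that covers counting error only. The order of the groups turned around when vehicle animal 2 or HPβCD animal 2 was left out, and no difference was detectable at this depth.

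Levels of different genes were compared per kilobase of exon, as mean CPM per kb over the 8 infarcts. The order was *Mdm2* (8.91), *Lmnb1* (8.53), *Cdkn1a* (5.62), *Cdkn2c* (5.33), *Trp53* (4.8), *Gdf15* (3.78), *Cdkn2a* (0.665), *Cdkn2b* (0.614) and *Il6* (0.0904). *Gdf15* was above *Cdkn2a*, and *Cdkn2b* above *Il6*, in 8 of 8 infarcts. *Lmnb1* was above *Cdkn1a* in 7 of 8 and *Trp53* above *Gdf15* in 6 of 8, the latter by less than the SD of *Gdf15*. The remaining neighbors in this order exchanged places in 3 or 4 of the 8 infarcts and did not differ beyond their spread. Per kilobase, *Gdf15* was at 2.22 ± 0.535 in vehicle-treated mice, below *Trp53* at 4.16 ± 0.559, and at 5.34 ± 0.547 in HPβCD-treated mice, beside *Trp53* at 5.44 ± 1.39 (SD, n = 4 per group).

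For the other genes kept by the filter, the genes with the most similar pattern over the 8 libraries out of 13286 candidates were *Riok3* (root mean square difference 0.08 in centred log2 CPM) and *Cryl1* (0.10) for *Cdkn1a*, *Lipe* and *Btbd19* (0.10 each) for *Trp53*, and *Ccdc82* and *Zfp493* (0.08 each) for *Mdm2*. For *Cdkn2c* they were *Gli3* (0.07) and *Dld* (0.08), and for *Lmnb1* they were *Spdl1* and *Irf8* (0.10 each). *Cdkn2b* was nearest to *Sh3d19* (0.16) and *Nras* (0.17). The nearest to *Cdkn2a* were *Itgae* (0.26) and *Sulf1* (0.30), the loosest likeness of the 8, in a gene whose own variation was 0.79.

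The surrounding pathways were described with 9 lists that hold 153 genes, of which 144 were tested and 1, *Igfbp4*, was called by edgeR. Lists are given by their counts and by the median log2 fold change beside -0.05, the median of all tested genes. Of all tested genes, 27.8% had an unadjusted p under 0.05. The 1 list gene that edgeR called was 0.694% of the list genes tested, below the 1.95% of all tested genes that it called. Over the same lists, DESeq2 called 17 genes (11.6%, where it called 17.0% of all genes) and limma-voom 32 (22.2%, where it called 21.9%). These shares were near or below those of all genes. Genes named below for an unadjusted p, for groups that did not overlap or for a call by DESeq2 or limma-voom were chosen after their values were seen.

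Among 27 further p53 target genes, 16 were higher and 11 lower in HPβCD-treated mice, with a median log2 fold change of 0.09, and edgeR called 0 of them. An unadjusted p under 0.05 in edgeR was reached by 5, 3 higher and 2 lower. DESeq2 called 2 higher and 1 lower, and limma-voom 3 higher and 4 lower. The 5 were *Perp*, a membrane protein of desmosomes (0.92, 163 ± 60.8 to 310 ± 86.0 CPM; edgeR adjusted p = 0.103), the death receptor gene *Tnfrsf10b* (0.68), the DNA damage response gene *Gadd45a* (0.62), the antiproliferative gene *Btg2* (-0.73) and the kinase gene *Plk2* (-1.10). *Ccng1* was at 314 ± 31.1 and 303 ± 47.6 CPM (-0.05), and *Trp53inp1* at 152 ± 41.6 and 106 ± 36.6 CPM (-0.53; edgeR adjusted p = 0.243). The groups overlapped in all 27, where 16.8% of all tested genes had groups that did not overlap.

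Of 17 regulators and relatives of p53, 15 were tested, 8 higher and 7 lower (median 0.02, and between -0.03 and 0.12 when 1 animal was left out), with 0 called by edgeR. The abundant *Usp7* (-0.08), *Rchy1* (0.02) and *Ep300* (0.06) differed by less than their SEs of 0.14 to 0.16. *Chek2*, a checkpoint kinase that phosphorylates p53, was at 19.3 ± 5.35 and 33.6 ± 2.94 CPM without overlap (log2 fold change 0.79, edgeR adjusted p = 0.0694). It was called higher by DESeq2 and limma-voom. No other tested gene of the list had groups without overlap (6.67%, beside 16.8% of all tested genes in either direction and 8.77% in the higher direction). *Atm*, the kinase upstream of *Chek2*, was the other gene with an unadjusted p under 0.05 in edgeR (0.45; adjusted p = 0.148). *Trp63*, a relative of *Trp53* that marks epithelia and was left out by the filter, was called lower by DESeq2, with 0.402 to 1.34 CPM in vehicle-treated mice and 0.0575 to 0.333 CPM in HPβCD-treated mice.

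The list of 17 genes of the CDK and Rb axis had 9 higher and 8 lower (median 0.10), with 0 called by edgeR and 4 at an unadjusted p under 0.05. DESeq2 called 1 lower and limma-voom 4 higher and 2 lower. Of the 4 genes with an unadjusted p under 0.05 in edgeR, 3 were higher. They were *Cdkn1c*, which encodes the inhibitor p57 (0.49), *Cdk4*, the kinase the INK4 proteins bind (0.42), and the cyclin gene *Ccnd3* (0.50). *Ccne2*, the gene of cyclin E2, was lower without overlap of the groups (-1.06, edgeR adjusted p = 0.0694). No other gene of the list had groups without overlap (5.88%, beside 16.8% of all tested genes). *Cdkn1b* (-0.10), *Rb1* (-0.09) and *Rbl2* (0.10) had the highest levels and differed by less than their SEs. Of 8 genes in the list of Polycomb regulators of the *Cdkn2a* locus, 7 were lower and 1 higher (median -0.16). The 7 include *Kdm6b* (-0.09), which encodes a demethylase that opposes Polycomb. With DESeq2 6 were lower and 2 higher, and without vehicle animal 2 or HPβCD animal 1, 5 were lower and 3 higher. The most abundant were *Bmi1* (-0.13), *Suz12* (-0.21) and *Rnf2* (-0.00). They had 140 ± 34.1, 70.5 ± 16.4 and 79.5 ± 23.0 CPM with vehicle and 128 ± 27.4, 60.9 ± 7.36 and 79.3 ± 15.3 CPM with HPβCD. None of the 8 had an unadjusted p under 0.05 in edgeR or was called by DESeq2, and limma-voom called 1 lower, *Eed*.

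Of 35 genes of the senescence secretory list, 32 were tested, 20 higher and 12 lower (median 0.10). *Igfbp4*, which encodes a binding protein of insulin-like growth factors, was called. It had 508, 827, 582 and 792 CPM in vehicle animals 1 to 4 and 1550, 1490, 1360 and 1340 CPM in HPβCD animals 1 to 4. Every HPβCD-treated mouse was above every vehicle-treated mouse, by 1.09 on the log2 scale (SE 0.20), which edgeR called with an adjusted p of 0.0483. Without vehicle animal 1 or 4 its log2 fold change was 0.98 or 1.18, with edgeR adjusted p-values of 0.152 and 0.0635, and without HPβCD animal 1, 2 or 3 it was 1.05, 1.07 or 1.12, with 0.156, 0.175 and 0.0899. Its difference moved with the summed fibroblast markers, whose part was not tested.

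In the same list 9 genes were higher and 1 lower at an unadjusted p under 0.05. In 7 genes (21.9%) the groups did not overlap, all 7 higher in HPβCD-treated mice. Of all tested genes, 16.8% did not overlap in either direction and 8.77% in the higher direction. DESeq2 called 7 higher, and limma-voom 5 higher and 5 lower. By limma-voom the 5 lower were *Il1b*, *Cxcl2*, *Cxcl10*, *Ccl4* and *Ccl8*, and the 5 higher were *Il1a*, *Igfbp4*, *Plaur*, *Timp2* and *Icam1*. *Igfbp5* was at 5730 ± 2840 and 11800 ± 1430 CPM (1.04; edgeR adjusted p = 0.129), and *Timp2*, an inhibitor of matrix proteases, at 761 ± 193 and 1390 ± 165 CPM (0.86; edgeR adjusted p = 0.0658). The gene lower at an unadjusted p under 0.05 was *Il1b*, the gene of interleukin 1β (9.68 ± 5.97 and 4.10 ± 1.76 CPM; -1.24, edgeR adjusted p = 0.143), whereas *Il1a*, its neighbor in function, was at 16.6 ± 4.72 and 31.8 ± 5.91 CPM without overlap (0.94; edgeR adjusted p = 0.0658). Without vehicle animal 3 the list had 15 higher and 17 lower, with a median of -0.07, and without vehicle animal 2 the median was 0.42. The 7 genes without overlap were *Il1a*, *Igfbp4*, *Igfbp5*, *Timp1*, *Timp2*, *Mmp3* and *Icam1*. The part of cell makeup in their differences was not tested.

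Of 13 lamina and chromatin genes, 12 were tested, 6 higher and 6 lower (median 0.12), with 0 called by edgeR and 2 at an unadjusted p under 0.05. Those 2 were *Lmna*, which encodes lamins A and C (26.8 ± 4.41 and 55.1 ± 14.2 CPM; 1.04, edgeR adjusted p = 0.0527), and *Sun2*, a protein of the inner nuclear membrane (136 ± 3.57 and 187 ± 39.8 CPM; 0.45, edgeR adjusted p = 0.119). The groups overlapped in neither of them (16.7% of the list, beside 16.8% of all tested genes in either direction and 8.77% in the higher direction). DESeq2 called 1 gene of the list higher, *Lmna*, and limma-voom 2 higher and 1 lower. The difference of 1.04 for *Lmna* stood beside 0.19 for *Lmnb1*, the lamin gene whose loss accompanies senescence. *Zmpste24*, the protease that matures lamin A, was at 151 ± 44.0 and 187 ± 13.5 CPM (0.31), and *Cbx5*, which encodes the heterochromatin protein HP1α, at 266 ± 19.4 and 266 ± 42.1 CPM.

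Of 11 genes of interleukin 6 signalling, 9 were tested, 8 higher and 1 lower (median 0.32), with 0 called by edgeR and 3 at an unadjusted p under 0.05. DESeq2 called 1, *Socs3*, the feedback inhibitor that the pathway induces (0.80; edgeR adjusted p = 0.104), and limma-voom called 0. The receptor genes *Il6ra* (0.46) and *Il6st* (0.59, 989 ± 310 and 1490 ± 119 CPM) were the other 2. *Stat3* was at 173 ± 34.6 and 228 ± 31.2 CPM (0.40; edgeR adjusted p = 0.199) and *Jak1* at 377 ± 57.8 and 409 ± 18.4 CPM (0.12). Without vehicle animal 3 the list had 7 higher and 2 lower (median 0.27). Without vehicle animals 1 and 3 together, it had 5 higher and 4 lower (median 0.21).

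Of 9 genes of the *Gdf15* receptor and the integrated stress response, the program through which *Atf4* raises *Gdf15* in other settings, 8 were tested, 4 higher and 4 lower (median -0.07). EdgeR called 0, with 2 at an unadjusted p under 0.05, *Atf3* (31.1 ± 8.00 and 46.9 ± 5.23 CPM; 0.59, adjusted p = 0.0959) and the pseudokinase gene *Trib3* (2.87 ± 0.359 and 6.85 ± 3.42 CPM; 1.25, adjusted p = 0.0823). DESeq2 called *Trib3* higher, and limma-voom both. *Atf4* itself was at 74.4 ± 16.1 and 74.8 ± 13.0 CPM (0.01). This is the level of the message alone, and the protein was not measured. *Asns*, an *Atf4* target that makes asparagine, was at 30.9 ± 28.9 and 18.8 ± 7.71 CPM (-0.72), and its sign turned without vehicle animal 3 (0.17), as did the median of the list (0.14).

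Of 16 proliferation genes, 14 were higher and 2 lower (median 0.41), with 0 called by edgeR and 2 at an unadjusted p under 0.05, *Pcna*, the DNA polymerase clamp (78.0 ± 3.94 and 121 ± 28.1 CPM; 0.63, edgeR adjusted p = 0.0802), and the replication licensing gene *Mcm2* (0.53; edgeR adjusted p = 0.106). These were also the 2 genes of the list (12.5%) whose groups did not overlap, both higher with HPβCD. Of all tested genes, 16.8% did not overlap in either direction and 8.77% in the higher direction. DESeq2 called 1 of the list, *Pcna*, and limma-voom both. *Top2a* (15.5 ± 6.63 and 21.7 ± 9.70 CPM; 0.49) and *Mcm6* (30.0 ± 6.76 and 37.3 ± 6.99 CPM; 0.31) were not called by any of the 3 tools. *Pcna* is also a p53 target and takes part in DNA repair. The direction of the list rested on HPβCD animal 3, without which 6 of the 16 genes were higher and 10 lower, with a median of -0.09, and without vehicle animal 3 the median was 0.21. *Mki67*, the gene of the proliferation antigen Ki-67 and chosen after its values were seen, had 9.08, 8.76, 26.7 and 10.8 CPM in HPβCD animals 1 to 4 and 9.20 to 13.1 CPM in vehicle-treated mice. *Top2a* had 36.3 CPM in HPβCD animal 3 and 16.2 to 17.3 CPM in the other HPβCD-treated mice, and its log2 fold change was 0.13 without that animal and 0.22 without vehicle animal 3. Limma-voom, which weights libraries by quality, gave a list median of 0.02.

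**Figure D4:**
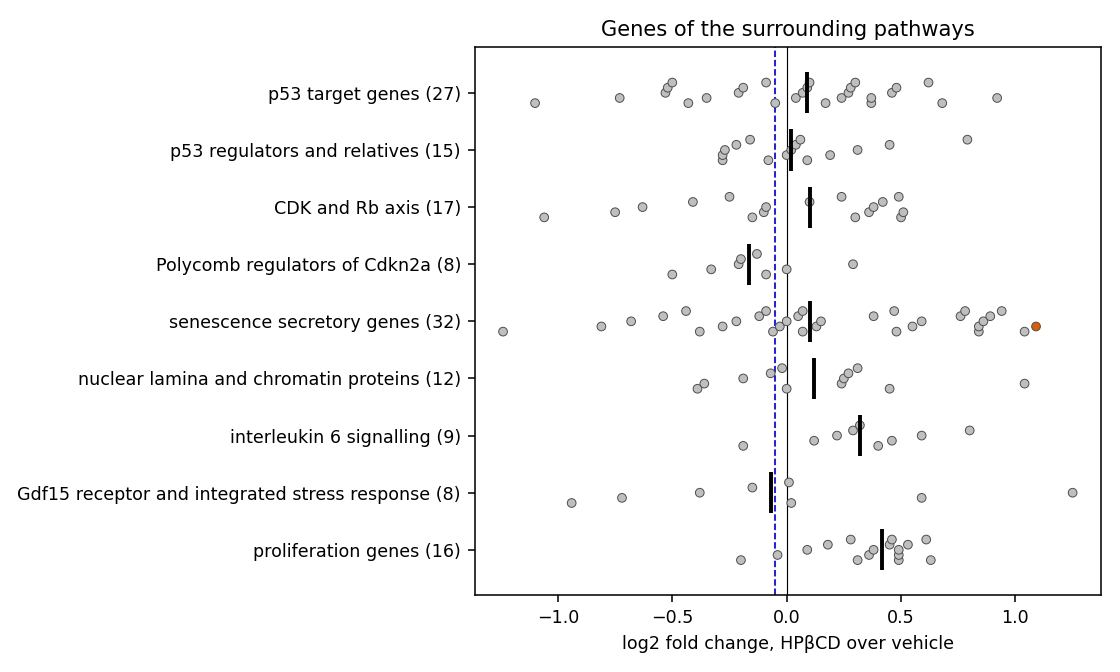
Log2 fold change, HPβCD over vehicle, of each tested gene in the 9 pathway lists (gray points, number of tested genes in brackets) with the median of each list (black bar). The dashed line is the median of all tested genes at -0.05, and the filled point is *Igfbp4* at 1.09, the only list gene called by edgeR. List medians run from -0.16 for the Polycomb regulators to 0.41 for the proliferation genes.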

How the data were processed

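RNA from 8 infarcts (4 per group) was made into stranded mRNA libraries and sequenced as paired-end reads. The authors trimmed reads with Trimmomatic 0.32, aligned them to GRCm38 with STAR 2.5.2b and counted them per gene with htseq-count. The deposited values are raw counts per gene, without normalization. The strand option and annotation release were not given in the sources used here. Reads assigned to no gene (26.6% to 36.6%) were left out. Symbols matched 45143 of 46078 identifiers, including all genes described. Positions are from GENCODE M21, in which no exon of the 9 genes overlaps an exon of another gene in the count tables.

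Counts were tested with edgeR 4.0.16 in R 4.3.3 (robust quasi-likelihood F test, TMM factors, filterByExpr, no covariate). DESeq2 1.42.0, the tool of the study, and limma 3.58.1 were alternatives, as were scaling, filters, a replicate block and leaving out animals. A prior count of 2 was added for log2 CPM. The procedure was tested on simulated data. No 2 libraries agreed within sampling noise (lowest chi-square per degree of freedom 19.8), and the replicates of the labels were taken as separate animals. No batch is given in the labels. All 9 genes, the 3 most abundant genes of each list, called genes and the 2 nearest genes by pattern were named by rule. The genes and lists were chosen with earlier results of these data known.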

Additional observations from a re-analysis of the deposited data

Results flagged for a closer look

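In 2 of the 18 groups of 4 animals examined, 1 animal stood apart from the other 3 by Dixon's test at the 95% level. Chance gives such a gap in about 1 in 20 groups, or 0.9 of 18. *Cdkn2c* had a log2 CPM of 3.13 in vehicle animal 3, against 3.91 to 4.04 in the other vehicle-treated mice. *Lmnb1* had a log2 CPM of 3.71 in the same animal, against 4.69 to 4.84. Vehicle animal 3 also had the highest summed neuron markers, 6010 CPM, and their part in these values was not tested.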

How the results depend on the processing

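Alternatives for the lists and list genes were chosen after seeing the data. Of the 9 genes, 1 was called; limma-voom called 2, library totals without scaling factors 0 (*Gdf15* 1.18, adjusted p 0.0549), and leaving out 1 animal 0 to 1. Over all genes, 287 were called, against 2899 with DESeq2, 3232 with limma-voom, 11 with library totals and 0 to 629 without 1 animal. Among list genes 1 was called, against 17 with DESeq2, 32 with limma-voom, 0 with library totals, 2 without a filter, 2 without vehicle animals 1 and 3, and 0 to 4 without 1 animal. Library totals moved the median of all genes from -0.05 to -0.13. With another test or scaling, the list medians of p53 regulators (library totals, -0.07), the CDK and Rb axis (limma-voom, -0.09) and the *Gdf15* receptor list (limma-voom, 0.19) changed sign, and that of the secretory list fell to 0.00 with both. A minimum of 1 CPM in 4 libraries left out *Cdkn2a* and *Cdkn2b*.

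Animal numbers did not pair the samples (correlations of same-numbered animals -0.26, 0.24, 0.33 and 0.10, with 3 of 8 animals closest to their own number). With the number as a replicate block, 0 of the 9 genes, 0 list genes and 9 genes in all were called (*Gdf15* 1.29, adjusted p 0.0843), and *Rnf2* was at 0.03.

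Signs turned only for uncalled genes, with causes not tested. With limma-voom these were *Cdkn2c* (-0.13), *Lmnb1* (-0.07), *Usp7* (0.06), *Rchy1* (-0.07), *Rbl2* (-0.09), *Cbx5* (0.07) and *Asns* (0.47), with library totals *Cdkn2c* (-0.01), *Rchy1* (-0.07), *Ep300* (-0.03) and *Atf4* (-0.06), and with 1 CPM *Atf4* (-0.01). *Rnf2* and *Cbx5* turned with DESeq2 (0.01, 0.02), DESeq2 size factors (both 0.00) and no filter (0.02, 0.03). Without vehicle animals 1 and 3 they were *Cdkn2b* (-0.07), *Cdkn2c* (-0.10), *Lmnb1* (-0.04), *Rchy1* (-0.18), *Ep300* (-0.10), *Rbl2* (-0.05), *Cbx5* (0.05), *Jak1* (-0.00) and *Asns* (0.52). Leaving out 1 animal gave *Cdkn2c* -0.08 to 0.24, *Lmnb1* -0.01 to 0.31, *Ccng1* -0.15 to 0.03, *Rchy1* -0.08 to 0.12, *Ep300* -0.01 to 0.19, *Cdkn1b* -0.26 to 0.05, *Rbl2* -0.01 to 0.19, *Rnf2* -0.17 to 0.13, *Cbx5* -0.08 to 0.10, *Atf4* -0.12 to 0.17, *Asns* -0.97 to 0.17 and *Il6* (difference in log2 CPM, -0.25 as reported) -0.55 to 0.20. Counts of 29 or fewer per library limit *Cdkn2a*, *Cdkn2b* and *Il6*.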
